A study of Mus musculus with 2 samples.

Results

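Nucleolar ribosome biogenesis factors are the proteins and protein-RNA particles that turn the long ribosomal RNA precursor into ribosomal subunits. They were taken by gene symbol, with a rule that uses no measured value but was chosen with earlier results of these data known. A gene was a member if its symbol began with Nop, Utp, Rrp or Nol followed by a digit, was Rpf1, Rpf2, Imp3 or Imp4, or was one of 14 well-known nucleolar genes such as Ncl, Npm1 and Fbl. The rule found 45 of the 12393 genes that have a probe set of their own on the array, measured by 78 probe sets. The rule also names Dkc1, which was not analysed here.

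Mouse iPSCs (induced pluripotent stem cells, which are reprogrammed from somatic cells) were profiled as 1 hybridized sample and 1 live sample, each on 1 expression array. Both samples were grown in 2i/serum mESC medium, and polyA RNA was taken from both with Trizol LS. The labels state neither what the hybridized cells were hybridized with nor the line, passage or clone. The values are log2 expression values from GCRMA, a method that corrects each probe for background by its base composition, and each difference below is the hybridized sample minus the live sample. With 1 array per group no test is possible and no value has a replicate error, so each difference describes these 2 arrays. The number of arrays limits the precision, and in bulk RNA fewer cells of a type and less RNA per cell cannot be told apart.

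Ribosomes are assembled in the nucleolus, where RNA polymerase I copies the ribosomal DNA. Box C/D and box H/ACA small nucleolar ribonucleoproteins (snoRNPs) modify the precursor, a large assembly called the small subunit processome folds and cuts its first part, and a further set of factors matures the large subunit. Pluripotent cells divide quickly and carry large nucleoli, and many of these factors are known targets of Myc.

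All 12 pluripotency markers were at a mean log2 value of 5 or more, the level above which genes were compared, and none was 2-fold apart on its brightest probe set. At second probe sets at the level, Lin28a differed by 1.06, Klf4 by -0.26 and Sall4 by -0.57. Nanog read 13.17 in hybridized cells and 13.03 in live cells, and Pou5f1 read 10.83 and 11.53. Of 18 fibroblast markers on the array, 3 reached the level. These were Col5a1 at 5.43 in hybridized cells and 7.58 in live cells, Col1a1 at 4.46 and 6.17, and Vim, which many cell types express, at 12.92 and 13.07. The second probe set of Col5a1 differed by only -0.04, and that of Vim by -0.36. Of 12 trophectoderm and endoderm markers, 4 reached it: Krt8 at 8.40 in hybridized cells and 9.88 in live cells (with -1.32 at its second probe set), Krt18, which was 0.71 higher, Sparc at 12.37 and 12.53, and Eomes at 7.11 and 7.19. The part of these other markers in the results below was not tested. Control probe sets differed between the arrays. The difference at the 5′ probe set exceeded that at the 3′ probe set by 2.52 for Actb, 1.81 for Gapdh and 0.5 for Tfrc. Hybridization controls read transcripts added to every array and not those of the cells. Their 18 probe sets differed by -1.22 to -0.15, with a median of -0.80. The part of these control differences in the results below was not tested.

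Of the 45 members, 44 were at the level, and 29 of these (65.9%) lay within 1.5-fold as deposited, beside 52.7% of all genes compared. In hybridized cells 7 members were 2-fold or more higher, which is 15.9% of the 44, beside 8.43% of the 7262 genes compared. The probe set of each gene was picked by the mean of the same 2 arrays, so a high hybridized value could favour its choice. At least 2-fold lower was 1 member, or 2.27%, beside 15.4% of the genes compared. The median difference was -0.01 over the members and -0.17 over all genes compared, with 21 members above 0 and 22 below. Members had a median level of 10.82 and all genes compared one of 9.20. Among genes with a level of 9 or more, a limit chosen after the data were seen, 5 of 37 members were 2-fold higher and none lower, beside 6.63% and 7.77% of the genes. Centred on the hybridization controls, 13 members were 2-fold higher and 0 lower, beside 31.8% and 2.84% of the genes. At a limit of 1.5-fold, 9 members were higher and 6 lower, beside 17.5% and 29.9% of the genes, and after quantile normalization of the arrays 7 were 2-fold higher and 2 lower, beside 8.04% and 15.6%. So the members' share of 2-fold higher genes was above that of all genes as deposited and near it when centred on the controls.

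**Figure D1:**
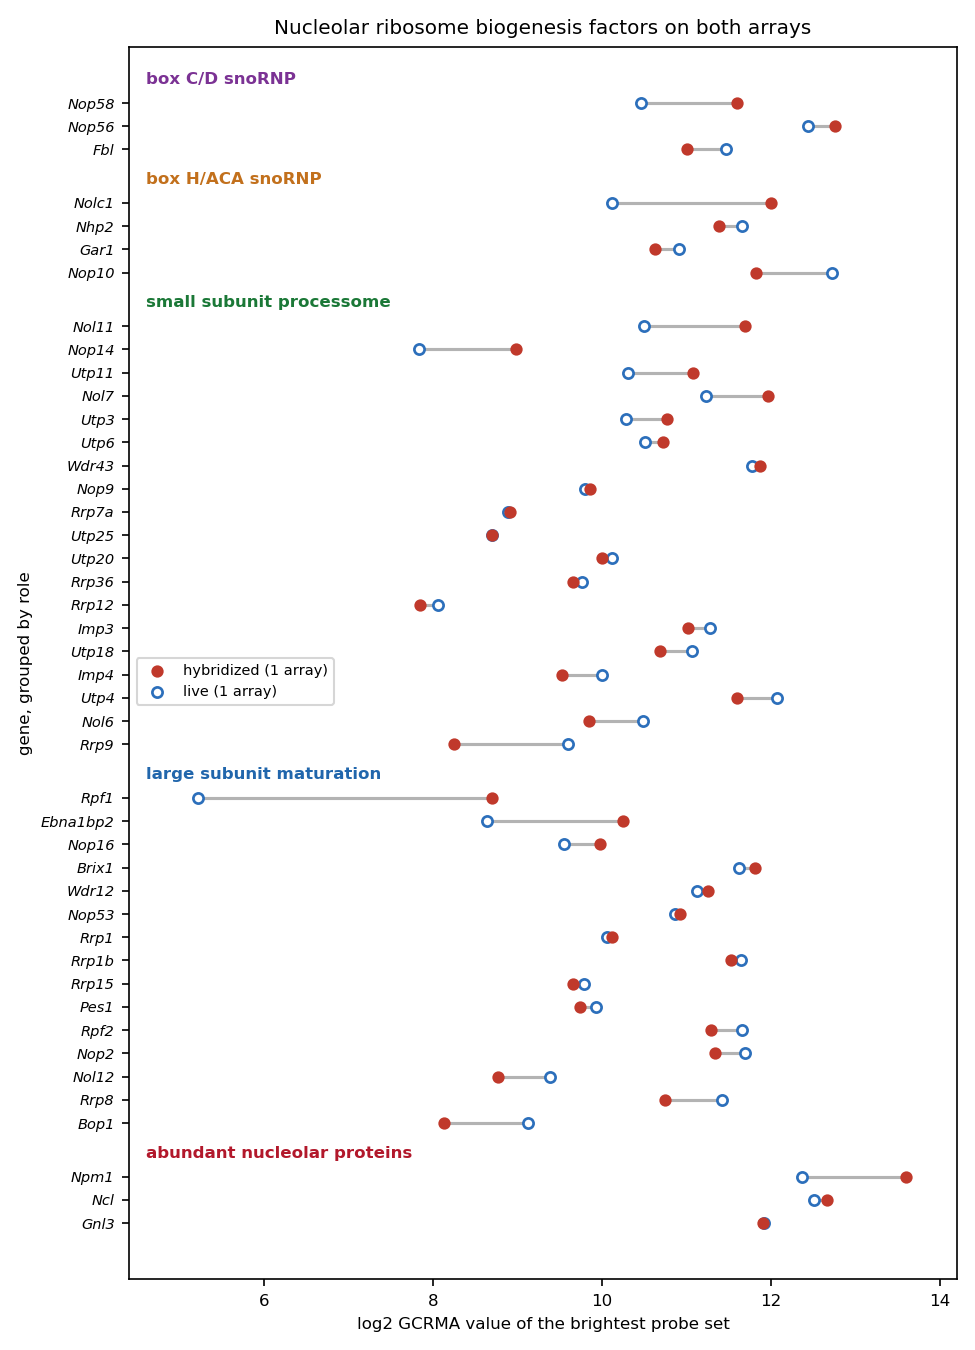
Log2 GCRMA values of the 44 members at the level, grouped by role; the filled point is the hybridized array, the open point the live array, and the line joins the 2 values of a gene. The points lie close together for most genes, while Rpf1, Nolc1, Ebna1bp2, Npm1, Nol11, Nop14 and Nop58 are 2-fold or more higher in hybridized cells and Rrp9 is 2-fold lower.

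**Figure D2:**
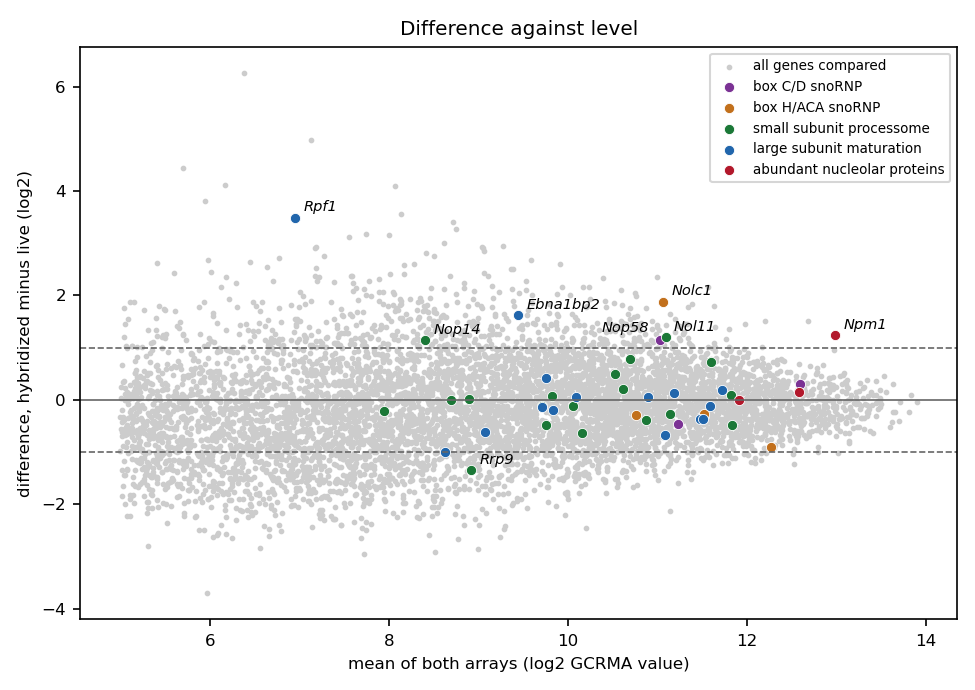
Difference between the arrays (hybridized minus live, log2) against the mean of both arrays for 7262 genes in grey and 44 members in colour by role; dashed lines mark a 2-fold difference. Of the 8 named members past the lines, 7 are above and 1 is below.

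The box C/D snoRNP, which places methyl groups on ribosomal RNA, had 3 members, and they differed in direction. Nop58, a scaffold protein that pairs with Nop56, read 11.60 in hybridized cells and 10.46 in live cells, a 2.20-fold difference on its only probe set. Nop56 read 12.75 in hybridized cells and 12.44 in live cells, and its second probe set was 0.87 higher. Fbl, which encodes the methyltransferase fibrillarin, read 11.00 in hybridized cells and 11.46 in live cells, whereas its second probe set was 0.25 higher. Only Nop58 was 2-fold apart among these 3.

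The box H/ACA snoRNP converts uridine to pseudouridine, and its measured core proteins were all slightly lower on their brightest probe sets. Nop10 read 11.82 in hybridized cells and 12.72 in live cells, a difference of -0.90, but its second probe set differed by -0.06. Nhp2 read 11.38 and 11.65 in hybridized and live cells, with 0.40 at its second probe set. Gar1, measured on 1 probe set, read 10.62 in hybridized cells and 10.91 in live cells. None of these 3 was 2-fold apart. Nolc1, a phosphoprotein that binds snoRNPs of both kinds, went the other way on its brightest probe set, with 12 in hybridized cells and 10.12 in live cells, a 3.68-fold difference. Its other probe sets differed by -0.55 (10.75 in hybridized cells and 11.30 in live cells) and 0.57, so the 3 probe sets of Nolc1 disagree in sign.

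The small subunit processome gave 19 members at the level, with a median difference of 0.00. Of these 19, 2 were at least 2-fold higher (10.5%, beside 8.43% of all genes), 1 was 2-fold lower (5.26%, beside 15.4%) and 13 lay within 1.5-fold (68.4%, beside 52.7%). Nol11, a partner of the Utp proteins that link processing to transcription of the ribosomal DNA, read 11.69 in hybridized cells and 10.49 in live cells. A second probe set of Nol11 read 10.93 and 10.98 in hybridized and live cells, and its remaining one read 6.81 and 4.33. The live value of that remaining probe set was under the level of 5. Nop14 read 8.98 in hybridized cells and 7.83 in live cells on its only probe set. Rrp9, a protein of the U3 snoRNP that guides the first cuts of the precursor, was the one member at least 2-fold lower, with 8.25 in hybridized cells and 9.59 in live cells, a 2.53-fold difference on a single probe set.

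Within the subcomplexes of the processome most differences were under 2-fold, and they had both signs. Of the subcomplex that joins transcription to processing, Nol11 was 1.20 higher, Wdr43 differed by 0.10 and Utp4 by -0.48. Of the subcomplex that holds Utp6 and Utp18, Utp6 differed by 0.21 and Utp18 by -0.38. Nol6 and Rrp7a, which share another subcomplex, differed by -0.64 and 0.02. Imp3 and Imp4, which bind the U3 RNA with Mphosph10, differed by -0.27 and -0.48. Utp11 (0.78), Nol7 (0.73) and Utp3 (0.49) were the next highest after Nop14, and Nol7 repeated its difference at 0.78 on its second probe set. Utp11 did not, since its second probe set differed by -0.77, at 7.50 in hybridized cells and 8.27 in live cells. Utp20, Utp25, Rrp36, Rrp12 (needed for export of the small subunit precursor) and Nop9 lay between -0.21 and 0.07.

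Among 15 large subunit factors, 2 were at least 2-fold higher (13.3%, beside 8.43% of all genes), none was 2-fold lower (beside 15.4%), and the median was -0.11. Rpf1, a ribosome production factor, read 8.70 in hybridized cells and 5.21 in live cells, an 11.2-fold difference and the highest of any member. Its live value lay near the level of 5, and its other probe set, with 3.60 in hybridized cells and 3.49 in live cells, was under it. Ebna1bp2, whose yeast counterpart acts in an early large subunit precursor, read 10.25 in hybridized cells and 8.63 in live cells, a 3.07-fold difference, and its other probe set was under the level at 2.25 and 2.32. So for neither gene could the difference be set against another probe set at the level.

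Rpf1, Rpf2, Brix1 and Imp4 encode proteins of the Brix domain family, which bind ribosomal RNA. On their brightest probe sets they differed by 3.49, -0.36, 0.19 and -0.48. Rpf2, which delivers the small RNA of the large subunit together with Rrs1, had the widest spread of any member over its probe sets: 11.29 in hybridized cells and 11.65 in live cells, then 10.60 and 10.05, then 11.37 and 9.10. The second probe set of Brix1 was at 9.45 in hybridized cells and 8.26 in live cells. The family thus held members on both sides of 0.

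Pes1, Bop1 and Wdr12 form a complex required to mature the large subunit RNAs. Bop1 read 8.13 in hybridized cells and 9.12 in live cells, a difference of -0.99 that lies just inside the 2-fold limit. Pes1 read 9.74 in hybridized cells and 9.93 in live cells, and its second probe set 4.72 and 5.76. The hybridized value of that second probe set was under the level of 5. Wdr12 read 11.25 in hybridized cells and 11.12 in live cells, and its second probe set 8.36 and 7.05, which is 1.31 higher. The complex therefore had Bop1 and Pes1 below 0 on each probe set and Wdr12 above 0 on each.

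The other large subunit factors lay within 2-fold on their brightest probe sets. The methyltransferases of ribosomal RNA Nop2 (-0.36) and Rrp8 (-0.68) and the RNA-binding protein Nol12 (-0.62) were lower. Rrp15 (-0.13), Rrp1b (-0.11), Rrp1 (0.06), Nop53 (0.06) and Nop16 (0.42) were closer to 0 or above it. The second probe set of Rrp1 stood apart from the first, with 7.86 in hybridized cells and 5.40 in live cells, a difference of 2.46. Nop53 had 9.35 in hybridized cells and 7.58 in live cells on its second probe set and 5.94 and 6.76 on the last.

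The abundant nucleolar proteins Npm1, Ncl and Gnl3 were level or higher in the hybridized sample. Npm1, a chaperone of the outer nucleolus, read 13.60 in hybridized cells and 12.36 in live cells on one probe set and 12.73 and 12.70 on the other. Ncl, an RNA-binding protein that also acts in transcription of ribosomal DNA, differed by 0.15, 0.08 and 0.13 on 3 of its 4 probe sets and by 1.13 on the fourth (12.23 in hybridized cells and 11.10 in live cells). Gnl3, the GTP-binding protein nucleostemin, read 11.90 and 11.91 in hybridized and live cells. Nol3, which matches the rule by name but encodes a repressor of apoptosis, was under the level at 3.89 in hybridized cells and 3.83 in live cells.

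Probe sets of the same gene often disagreed. Of the 44 members, 20 had 2 or more probe sets at the level, 11 of these spanned at least 1 log2 unit, and 8 had probe sets on both sides of 0. The brightest and second brightest had the same sign in 14 of the 20 members, beside 1747 of 2720 genes on the array. Spans were not counted over all genes, so the disagreement is not shown to be particular to the members. Of the 3 members that were 2-fold higher on the brightest of several probe sets, Nolc1, Npm1 and Nol11, 0 were 2-fold higher on the second. In live cells their second probe sets read 11.30, 12.70 and 10.98, above the 10.12, 12.36 and 10.49 of the brightest. The live array alone would thus have picked another probe set for each of these 3. Of 545 genes on the array that were 2-fold apart on the brightest of several probe sets, 197 were so in the same direction on the second. The second brightest probe set lay a median of 0.46 above the brightest over the 20 members and 0.23 above it over 2720 genes. At that second probe set 4 of the 20 members were 2-fold higher and 2 lower, beside 18.7% and 9.04% of the 2720 genes. Averaged over the probe sets of a gene at the level, 6 of 44 members were 2-fold higher and 1 lower, beside 9.45% and 13.7% of the genes compared. Of 28 member probe sets other than the brightest, 7 were 2-fold higher (25.0%) and 2 lower (7.14%), beside 21.3% and 8.37% of 4145 such probe sets of all genes. Both shares are near those of all genes.

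**Figure D3:**
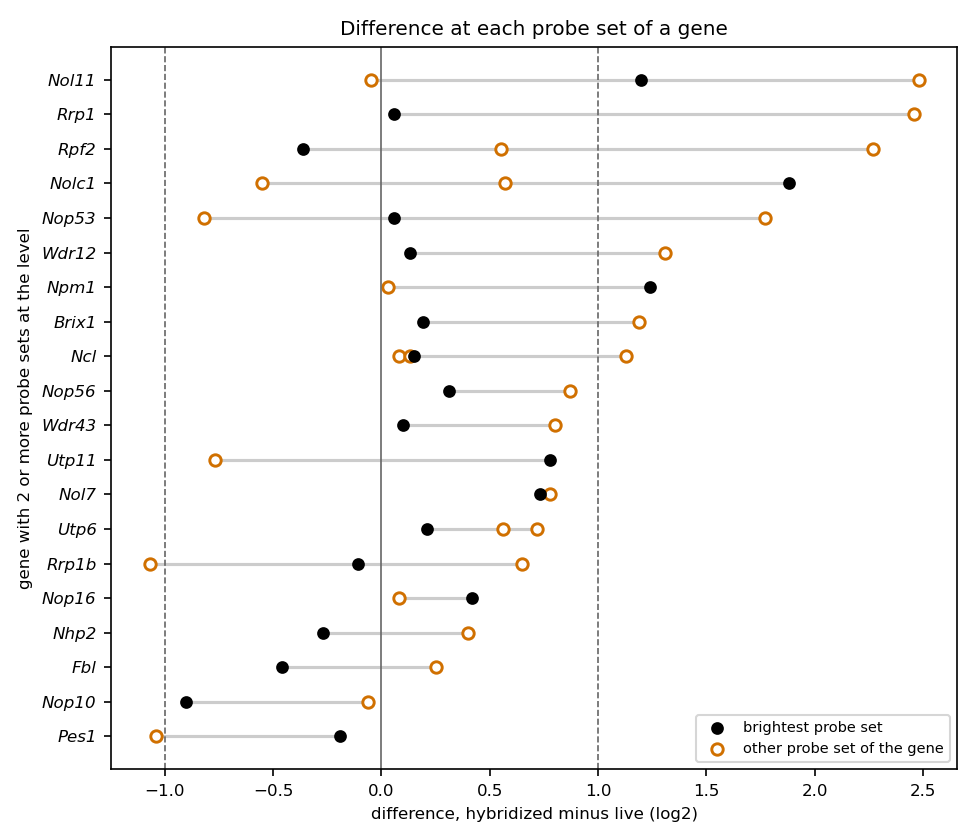
Difference between the arrays (hybridized minus live, log2) at each probe set at the level, for the 20 members with 2 or more; filled points are the brightest probe set, open points the others, and dashed lines mark a 2-fold difference. Rpf2, Nop53, Nol11, Nolc1 and Rrp1 span more than 2 log2 units, while both probe sets of Nol7 lie within 0.05 of each other.

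Taken over all 72 member probe sets at the level, 14 were 2-fold higher (19.4%) and 3 lower (4.17%), beside 13.1% and 12.8% of 11407 probe sets. The 14 came from 13 genes. Among them a probe set of Nol11, at 6.81 in hybridized cells and 4.33 in live cells, passed the level only through the hybridized array. The suffix _a_at marks probe sets whose probes match several transcripts of one gene. Of 12 member probe sets with this suffix, 5 were 2-fold higher and none lower, beside 16.6% and 12.2% of 2301 such probe sets. They belong to Npm1, Nop53, Rpf1, Rpf2 and Rrp1, and were grouped after their values were seen. The 7 member probe sets with the suffix _s_at, whose probes can match more than one gene, had no 2-fold difference and a median of 0.06, beside 11.3% higher, 13.7% lower and a median of -0.18 over 926 such probe sets, too few members to read a difference from.

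The other genes of the pathway, 76 ribosome biogenesis factors outside the rule, were all at the level. Of these, 9 were at least 2-fold higher (11.8%) and 4 were 2-fold lower (5.26%), beside 8.43% and 15.4% of all genes compared, and the median was 0.07 beside -0.17. The higher ones included Rsl1d1, a nucleolar protein, with 11.21 in hybridized cells and 8.61 in live cells. Rbm28 (1.94), Ftsj3, a methyltransferase-like factor of the nucleolus (1.83), Lsg1, a GTPase of late large subunit maturation (1.73), and Pinx1 (1.53) followed. For 31 of the 76 another probe set was at the level, and on the second brightest 12 were 2-fold higher and 1 lower, beside 18.7% and 9.04% of all genes. Krr1, which acts in the small subunit processome, was 1.13 higher and then 2.00 higher on its second probe set, while that of Rbm28 differed by -0.01. The 4 lower genes were Las1l, a nuclease of the large subunit pathway (8.04 in hybridized cells and 9.74 in live cells), Tcof1, the treacle protein of rRNA transcription (-1.30, with 0.03 on its second probe set), Pelp1 (-1.26) and Noc4l (-1.04). Without suffixed probe sets the counts were 15 higher and 2 lower of 65, beside 10.3% and 13.8% of all genes.

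RNA polymerase I and its factors, which make the precursor that the members process, gave 13 genes at the level. Of these, 2 were 2-fold higher (15.4%) and 3 lower (23.1%), beside 8.43% and 15.4% of all genes compared, and the median was 0.08. Taf1b, of the promoter selectivity factor, read 8.63 in hybridized cells and 5.72 in live cells. Taf1d read 11.65 and 9.54, with a difference of 2.41 at its second probe set. Taf1c of the same factor read 5.43 in hybridized cells and 7.07 in live cells. Polr1a, the largest subunit of the polymerase, read 7.89 in hybridized cells and 9.33 in live cells, and Ubtf, which binds ribosomal DNA, read 9.85 and 11.00, but the second probe sets of Polr1a and Ubtf were 0.66 and 0.62 higher. Of the Myc family, Mycn read 11.92 in hybridized cells and 11.63 in live cells, Myc 6.37 and 7.37, Mycl 6.88 and 8.49, and their partner Max 10.00 and 9.31. On their brightest probe sets Myc and Mycl were 2-fold lower, 2 of these 4 genes, beside 15.4% of all genes compared. None of the 4 was 2-fold higher there, beside 8.43%. The second probe set of Mycn was 1.00 higher in the hybridized sample, which meets the 2-fold limit.

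The ribosomal RNA and proteins that the pathway assembles were measured only in part. The array's control probe sets for 18S ribosomal RNA, the RNA of the small subunit, read 11.29 in hybridized cells and 12.49 in live cells, 7.88 and 9.26, and 4.98 and 6.60. All 3 were lower in the hybridized sample, by 1.20 to 1.62 log2 units, in RNA that the labels give as polyA. In such RNA these readings do not give the amount of 18S RNA in the cells. The hybridization controls also differed, by -1.22 to -0.15 with a median of -0.80, and their part in the 18S readings was not tested. Of 41 cytosolic ribosomal protein genes at the level, none was 2-fold apart, the median was -0.36, and 31 lay below 0 (75.6%). Their median level was 12.83, beside 10.82 for the members and 9.20 for all genes compared. Several of these genes, such as Rps29 and Rpl38, were read on probe sets with the suffix _x_at. Over 841 such probe sets of all genes the median difference was -0.38. Below 0 lay 22 of the 44 nucleolar factors and 58.5% of all genes compared. The difference between these lists could not be tested with 1 array per group.

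**Figure D4:**
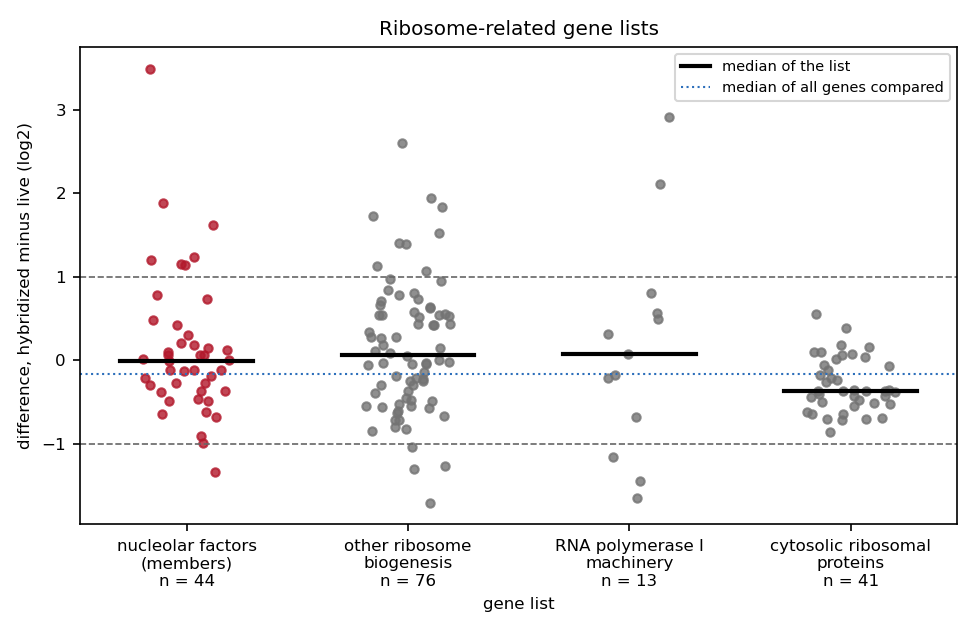
Difference between the arrays (hybridized minus live, log2) for each gene at the level in 4 lists; black bars are list medians, the dotted line is the median of all genes compared and dashed lines mark a 2-fold difference. The members (median -0.01) and the other biogenesis factors (0.07) spread past both dashed lines, and the ribosomal proteins (-0.36) stay within them.

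Promoters of the members were set beside the values, because Myc binds the E-box CACGTG and factors of the ETS family bind CCGGAAGT. RefSeq promoters (GRCm38.p6, from 250 bases before to 50 bases after each start) were matched for 35 of the 45 members. An E-box, which reads the same on both strands, lay in the promoters of 11 of the 35 (31.4%), beside 8.09% of 27025 genes in the table and 12.7% of the 5997 of these that were compared. The ETS letters, on either strand, lay in 9 of 35 (25.7%), beside 4.31% and 10.7%. Both were found for Rpf2 and Utp4. The motifs were chosen after the data were seen, and a match describes letters, not a bound site.

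The 150 bases before the start are shown for 7 genes, with E-box and ETS letters on either strand in capitals. Nol11 (chr11:107189382-107189531, minus strand), Nop2 (chr6:125131733-125131882, plus), Rpf2 (chr10:40246980-40247129, minus, 1 of its 2 starts) and Utp18 (chr11:93885767-93885916, minus) have an E-box whose first base lies 43, 60, 26 and 20 bases before the start. Gar1 (chr3:129831397-129831546, minus) and Nhp2 (chr11:51619623-51619772, plus), partners in the H/ACA snoRNP, have the ETS letters 44 and 23 bases before it. Nop58 (chr1:59684856-59685005, plus) is shown as a 2-fold higher member with neither.
Nol11: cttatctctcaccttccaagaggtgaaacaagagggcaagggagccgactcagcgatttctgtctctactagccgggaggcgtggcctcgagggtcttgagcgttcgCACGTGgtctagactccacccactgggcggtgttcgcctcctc
Nop2: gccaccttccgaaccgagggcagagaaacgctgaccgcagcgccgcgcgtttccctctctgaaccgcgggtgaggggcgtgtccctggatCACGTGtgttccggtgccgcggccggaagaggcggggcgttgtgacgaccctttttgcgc
Rpf2: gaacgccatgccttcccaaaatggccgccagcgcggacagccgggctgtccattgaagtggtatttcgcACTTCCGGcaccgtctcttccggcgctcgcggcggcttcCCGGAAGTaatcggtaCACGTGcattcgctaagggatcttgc
Utp18: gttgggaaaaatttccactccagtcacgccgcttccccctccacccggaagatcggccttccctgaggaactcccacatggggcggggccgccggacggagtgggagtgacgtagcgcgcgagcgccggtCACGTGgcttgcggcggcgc
Gar1: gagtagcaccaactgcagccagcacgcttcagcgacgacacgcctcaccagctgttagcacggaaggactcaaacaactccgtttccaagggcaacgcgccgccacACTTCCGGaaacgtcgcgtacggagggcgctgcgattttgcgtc
Nhp2: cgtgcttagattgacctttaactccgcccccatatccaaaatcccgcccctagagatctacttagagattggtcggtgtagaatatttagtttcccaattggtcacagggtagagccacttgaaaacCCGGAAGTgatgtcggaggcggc
Nop58: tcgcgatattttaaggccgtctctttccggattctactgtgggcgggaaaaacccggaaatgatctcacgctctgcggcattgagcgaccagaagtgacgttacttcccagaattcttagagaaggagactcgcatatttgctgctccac

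Members with and without an E-box both lay around 0. The 11 members with an E-box had a median difference of -0.19, and 1 of them, Nol11, was 2-fold higher. The 24 with a promoter and no E-box had a median of 0.07, and 4 were 2-fold higher. Rpf1 and Npm1, also 2-fold higher, had no promoter matched and are in none of these counts by motif. For the ETS letters the medians were -0.27 over 9 members with them and 0.01 over 26 without, with 1 (Ebna1bp2) and 4 members 2-fold higher. Of the genes shown with an E-box, Nop2 (-0.36) and Utp18 (-0.38) read lower in the hybridized sample on their only probe sets, whereas the probe sets of Rpf2 (-0.36, 0.55 and 2.27) and Nol11 (1.20, -0.05 and 2.48) lay on both sides of 0.

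Several members carry snoRNA genes inside their own gene spans. By the RefSeq gene spans, 6 of the 44 members at the level enclose at least 1 snoRNA gene (13.6%), beside 2.40% of 7253 genes compared. They were Nop58 (with Snord11 and Snord70), Nop56 (Snord57 and Snord110), Ncl (Snord82 and Snora75), Wdr43 (Snord53 and Snord92), Nop53 (Snord23) and Gnl3 (Snord19 and Snord69). Their median difference was 0.12, against -0.11 over the members that enclose none. Over all genes compared the medians were -0.09 with a snoRNA gene and -0.17 without. Among the 6 members Nop58 alone was 2-fold higher on its brightest probe set. Probe sets of the host genes do not show the level of the snoRNAs.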

How the data were processed

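Amplification used the NuGEN Ovation kit and labelling its biotin cDNA module, per the labels' protocols. The authors deposited 1 log2 value per probe set and array, made with GCRMA and affy per the submitters' processing notes; no version or order of steps is given in the sources used here. The log base is not stated and was inferred from the method and the range of 1.02 to 14.24. Of 22690 probe sets, 20380 have 1 gene in the platform annotation; the others were left out.

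A gene was represented by its brightest probe set, by the mean of both arrays, and entered the comparison if that mean reached 5. It counted as 2-fold apart from a log2 difference of 1 in either direction. There was no model and hence no p-value. Genes at least 2-fold apart, the snoRNP core, the abundant proteins and the Pes1 complex are given in full, other members by role; of other lists, at most 5 genes per direction. The members, roles and lists were chosen with earlier results of these data known. Entrez IDs of all 45 members matched RefSeq (GRCm38.p6). The calling code was run on simulated data with known shifts, which checks the code and not how reliable the calls are here. Python 3.11.15, numpy 2.4.6, pandas 2.3.3, statsmodels 0.14.6 and matplotlib 3.10.9 were used.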

Additional observations from a re-analysis of the deposited data

How the results depend on the processing

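No paired analysis was possible because each group has 1 array. The cause of the changes below was not tested. The count of higher members was 7 as deposited, 4 of 20 at the second brightest probe set and 13 centred on the hybridization controls. The shares over all genes were 8.43%, 18.7% and 31.8%. The 4 were Brix1, Nop53, Rrp1 and Wdr12, none of which was among the 7. Under the 10 other settings chosen at the outset and the 3 added after the data were seen, the count was 5 to 9. The share over all genes was not computed under each of these settings. The count of lower members was 1 as deposited and 2 at the second probe set, where the 2 were Pes1 and Rrp1b. The shares over all genes were 15.4% and 9.04%. That probe set of Pes1, at 4.72 in hybridized cells and 5.76 in live cells, was above the level of 5 on the live array only. The count of lower members was 2 after quantile normalization, 0 when centred on the controls, 0 at a level of 9 and 6 at 1.5-fold. The shares over all genes there were 15.6%, 2.84%, 7.77% and 29.9%. The member median of -0.01 became 0.33 at the second probe set, 0.16 centred on the median gene and 0.80 centred on the controls. For the 76 other biogenesis factors, the count of higher genes was 9 as deposited, beside 8.43% of all genes. Without suffixed probe sets it was 15 of 65, beside 10.3%. It was 34 centred on the controls, beside 31.8% of all genes, and 19 at 1.5-fold, beside 17.5%. The count of lower genes was 4 as deposited, beside 15.4% of all genes, and 2 without suffixes, beside 13.8%. With all probe sets of a gene averaged, also those under the level, it was 2, and no share over all genes was computed. It was 1 of 31 at the second probe set, 0 centred on the controls and 12 at 1.5-fold, beside 9.04%, 2.84% and 29.9%. The median of these factors, 0.07 as deposited, was 0.26 with all probe sets averaged, also those under the level, and 0.39 without suffixes. It was 0.56 at the second probe set, 0.24 centred on the median gene and 0.87 centred on the controls. Of the members 2-fold apart, Nol11 (-0.05) and Nolc1 (-0.55) changed sign at the second probe set. Averaged over the probe sets at the level, a choice made after the data were seen, 6 members were higher and 1 lower. All genes had shares of 9.45% and 13.7% at this setting. The level of 5 is a set limit, not a test of presence.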
